A study of Mus musculus with 6 samples.

Results

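Gm15056 and 8 antimicrobial proteins were examined in the kidneys of lupus-prone mice. Gm15056 is a predicted gene of chromosome 8 whose RefSeq synonym, Defb52, is a beta-defensin name. The other 8 genes are Defb1, a beta-defensin made by the kidney epithelium, Slpi, an inhibitor of serine proteases, Lcn2, a protein that binds bacterial siderophores, S100a8 and S100a9, the subunits of calprotectin, and Camp, Ltf and Ngp, which neutrophils store in granules. The genes were found by their names in the array annotation, with every probe of each gene, and this gave 9 genes with 12 probes out of 56605 probes with 36870 names. Gm15056 was chosen by its very large rise in these arrays, so its values are a description and were not tested. Both groups were female mice of the MRL/MpJ background at 6 months of age, kept under specific pathogen-free conditions. The 3 control mice were MRL/MpJ (MRL), and the 3 diseased mice were MRL/MpJ-Fas lpr/lpr (LPR), which carry the lpr mutation of the death receptor gene Fas on both chromosomes and develop lupus nephritis. RNA was taken from the whole kidney, in which fewer cells of a type and less RNA per cell cannot be told apart.

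Antimicrobial proteins form a chemical barrier on epithelia and arm the granules of phagocytes. Defensins and cathelicidin (Camp) insert into microbial membranes, whereas Ltf, Lcn2 and calprotectin withhold iron, zinc and manganese from microbes. Lcn2 is also made by injured tubular cells and is known as a marker of kidney injury, and S100a8 and S100a9 are released by neutrophils and monocytes and act as danger signals. Slpi protects tissue from the elastase and cathepsin G that neutrophils release.

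Transcripts were measured with 1 single-colour Agilent array for each mouse, and all 6 arrays were on 1 slide. The first position number of an array, here called its line on the slide, was 1 for the 3 MRL arrays and LPR 1. For LPR 2 and LPR 3 it was 2. What this number stands for on the slide was not stated. The arrays held 59305 spots each, of which 69.6% to 73.5% were well above background and 0 were saturated, and the number of arrays limits the precision. Levels are given on a log2 scale relative to the 75th percentile of the array, where 0 is the level below which 75% of the spots lie. Changes are LPR minus MRL on the same scale, and the median change of the 39924 tested probes was -0.13. The threshold was an adjusted p of 0.05 in limma (Benjamini-Hochberg, over every tested probe). The brighter probe of Fas, the mutated gene, had levels of -0.35, -0.27 and -0.04 in MRL 1, 2 and 3 and of -0.47, -1.23 and -0.36 in LPR 1, 2 and 3, and it did not pass the threshold (limma, adjusted p = 0.235). The other probe of Fas was well above background in 0 of 3 MRL and 3 of 3 LPR kidneys, a rise of at least 1.47-fold (limma, adjusted p = 0.0337).

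Among the 8 genes other than Gm15056, 4 were higher in LPR mice, namely Slpi, Lcn2, S100a8 and S100a9, and the other 4, Camp, Ltf, Ngp and Defb1, did not pass the threshold. Over all tested probes 6.54% were higher and 6.07% were lower in LPR mice. For 7 of the 8 genes all 3 LPR kidneys lay above all 3 MRL kidneys, an order that 11.1% of the tested probes showed. Defb1 showed the opposite order, as did 26.6% of the tested probes. These genes were chosen with earlier results of these data known, so the counts describe them and do not set them apart from other genes.

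**Figure D1:**
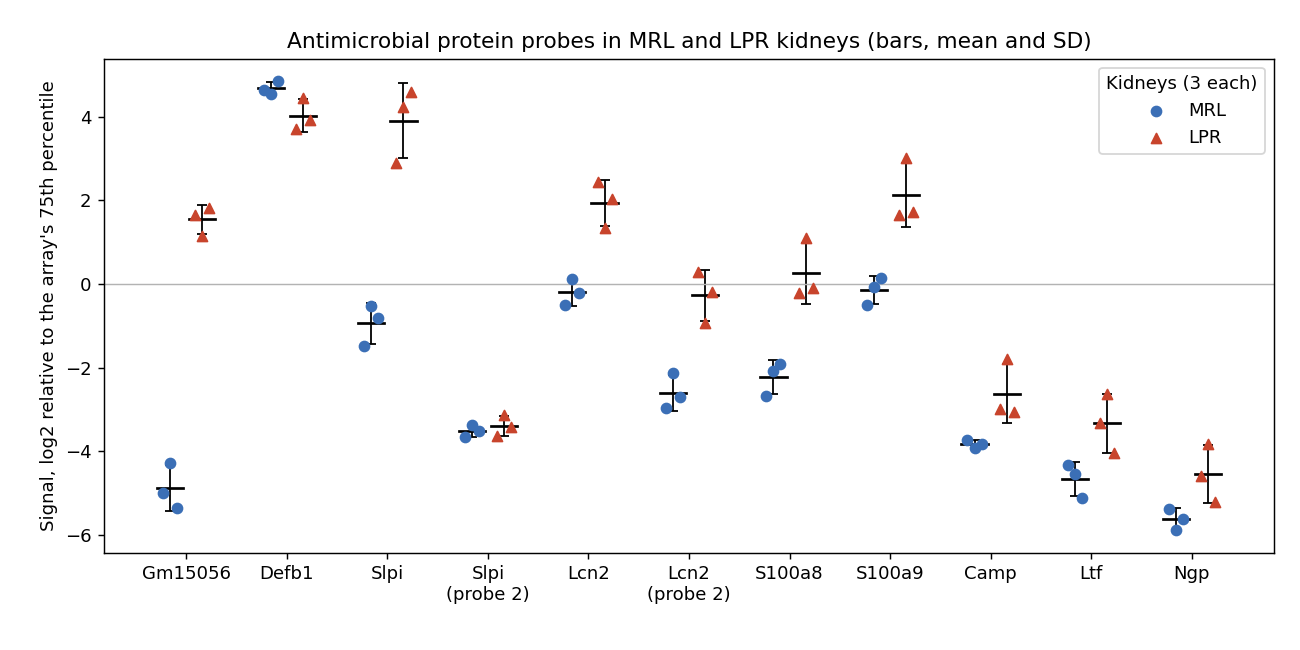
Signal of the 11 tested probes of the 9 genes in each kidney, on a log2 scale relative to the 75th percentile of the array (circles, 3 MRL kidneys; triangles, 3 LPR kidneys; bars, mean and SD). Gm15056 went from a mean of -4.88 to 1.54, the LPR kidneys lay above the MRL kidneys for every probe but that of Defb1, where they lay below, and the second probe of Slpi, where the groups overlapped.

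Gm15056 was measured by 1 probe, A_55_P2169247, made for the transcript NM_001177471. The probe is placed on chr8_random:308690-308749 of mm9 (plus strand), among the pieces that this build assigns to chromosome 8 without a position. Its first 30 of 60 bases are shown in lower case because the whole signal of this gene rests on this probe, and no run of 20 bases of it occurs in any other probe of the array.
Gm15056 probe: aaccatgacctgaggaagttatctttcctg

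The level of Gm15056 was -5.01, -4.28 and -5.36 in MRL 1, 2 and 3, and 1.66, 1.15 and 1.82 in LPR 1, 2 and 3. In every LPR kidney it lay far above every MRL kidney, and the lowest LPR and the highest MRL kidney were 5.42 apart. The mean of the MRL kidneys was -4.88 ± 0.56 (SD, n = 3), and that of the LPR kidneys was 1.54 ± 0.35 (SD, n = 3). The change was 6.43 (standard error 0.30), or 86.0-fold, the rank 18 by size of rise among 25805 genes. Gm15056 and Slpi were the members with a rise of over 10-fold, as was found for 1.11% of all tested probes. The intensities before scaling were 22.5, 36.5 and 17.0 in MRL mice and 2942, 1617 and 2652 in LPR mice. The probe was well above background on all 6 arrays, although the MRL signals were dim. The size of the rise depended on the background correction and its offset. With normexp correction and an offset of 50 the change was 4.58 on the log2 scale. This offset is added to every signal and is larger than the MRL intensities, so by itself it makes the rise smaller. Its part was not tested separately.

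In the order of protein-coding RefSeq genes (GRCm38.p6), Gm15056 lies between Defb33 and Gm6040, in a stretch rich in defensin genes. Of the 10 nearest protein-coding genes, 5 on each side, 7 were on the array and 6 were tested, and their values were looked up after that of Gm15056 was known. The gene AY761185, on the same side as Gm6040, was well above background in 0 of 3 MRL and 3 of 3 LPR kidneys. Its levels in LPR 1, 2 and 3 were -5.34, -4.80 and -4.53, which made a rise of at least 2.07-fold (limma, adjusted p = 0.000124). Gm15319, on the side of Defb33, was 3.16-fold lower in LPR mice (limma, adjusted p = 0.0102). It was above background in 2 of 3 LPR kidneys, with levels of -5.54, -6.30 and -5.23 in LPR 1, 2 and 3. The size of this fall thus rests on LPR signals near background. The nearest tested gene, Gm6040, changed by 0.01 on the log2 scale and did not pass (limma, adjusted p = 0.964), and the remaining 3 tested neighbours, 9530057J20Rik, Defa21 and Defa23, did not pass either. Defb33 was above background on 1 of 6 arrays and was not tested.

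Defb1, which the epithelium of the distal nephron makes without a stimulus, was measured by the probe A_55_P2893078 (chr8:22905599-22905658 of mm9, plus strand). Its level was 4.63, 4.55 and 4.86 in MRL 1, 2 and 3, and 3.71, 4.46 and 3.92 in LPR 1, 2 and 3. All 3 LPR kidneys were below all 3 MRL kidneys, but LPR 2 was only 0.09 below the lowest MRL kidney. The change of -0.65 (standard error 0.21, 95% interval -1.14 to -0.16), or 1.57-fold lower, did not pass the threshold (limma, adjusted p = 0.0864). Without LPR 2 the change was -0.87 and passed (adjusted p = 0.0197), and it also passed with normexp (-0.65, adjusted p = 0.0255) and with an intensity trend in limma (adjusted p = 0.0406). The 10 markers of kidney segments included 2 that fell in LPR mice, Calb1 of the distal tubule by 1.19 (limma, adjusted p = 0.0353) and Lrp2 of the proximal tubule by 0.39 (limma, adjusted p = 0.0497) on the log2 scale. For Lrp2 this was the brightest probe, and 1 of its 5 tested probes was lower, whereas all 3 of Calb1 were. Their part in the values of Defb1 was not tested.

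The beta-defensin family without Defb1 and Gm15056 had 42 genes on the array. Of these, 12 were bright enough to be tested and 0 passed the threshold in limma or in the methods' t-test (2-tailed, as the study's methods name it, with the same adjustment), with a median change of -0.23 against -0.12 over all genes. At an unadjusted p under 0.05 in limma, 2 were higher and 2 were lower. At the same time 21 of the 42 were above background on 0 of 6 arrays. The changes of the 12 tested genes ran from -0.98 for Defb19 (limma, adjusted p = 0.0776) to 0.94 for Defb9 (limma, adjusted p = 0.0846). Defb9 was above background in 0 of 3 MRL kidneys, and the lower bound from the group means was 1.40-fold. LPR 1, at -6.12, lay below the limits used for MRL 1, 2 and 3 (-5.86, -5.99 and -5.95), so a rise is uncertain. Since Gm15056 was chosen by its very large rise, the smaller changes of the tested beta-defensins do not set it apart from its family. Of the 21 alpha-defensins on the array, the antimicrobial peptides of intestinal Paneth cells, 11 were tested and 2 were higher. Defa-rs2 was 2.02-fold higher (limma, adjusted p = 0.00957), and Defa-rs4 was at least 1.80-fold higher (limma, adjusted p = 0.0164), with no MRL kidney above background. The alpha-defensin genes are near-identical copies, so the source of these dim signals is uncertain.

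Slpi was represented by 3 probes on chromosome 2 (mm9, minus strand), which gave different results. The probe A_52_P472324 (chr2:164179849-164179908) stood for the gene as the brightest, A_66_P112306 lies at chr2:164182009-164182068, and A_51_P135148, made for the sequence U73004 only, lies at chr2:164185063-164185122. The first 30 bases of each are shown because the result of this gene depended on the probe.
Slpi probe A_52_P472324: ttactgttttaccactaacatctccttttg
Slpi probe A_66_P112306: ctggtaaagacataaatagtgatcctcggg
Slpi probe A_51_P135148: tgagtaacaggagccacaaggtatgtctga

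With the brightest probe the level of Slpi was -1.48, -0.52 and -0.81 in MRL 1, 2 and 3, and 2.89, 4.23 and 4.59 in LPR 1, 2 and 3. The groups were widely separated, although LPR 1 lay clearly below the other two LPR kidneys. The mean rose from -0.94 ± 0.49 (SD, n = 3) to 3.91 ± 0.90 (SD, n = 3), a change of 4.84 (standard error 0.46) or 28.7-fold, which passed the threshold (limma, adjusted p = 0.000801). With A_66_P112306 the levels were -3.65, -3.38 and -3.51 in MRL mice and -3.63, -3.14 and -3.43 in LPR mice. The groups overlapped with this probe, and the change of 0.11 (95% interval -0.25 to 0.48) did not pass (limma, adjusted p = 0.645). Its annotation lists the RefSeq transcript of the bright probe and also ENSMUST00000167427, which that of the bright probe does not. The third probe was well above background on 0 of 6 arrays and was not tested. The average of the tested probes moved the change of Slpi to 2.48 on the log2 scale, and it still passed (adjusted p = 0.00219).

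Slpi belongs to the whey acidic protein family, of which 20 other genes were on the array and 12 were tested. Of these 1 passed, Wfdc17, a gene of activated macrophages, with a rise of 26.6-fold (limma, adjusted p = 1.8e-05) and no overlap of the groups. Wfdc21 changed by 1.38 on the log2 scale without passing (limma, adjusted p = 0.154), and the median of the family was -0.03. Of the 6 serine proteases listed as targets of Slpi, 4 were tested and 0 passed in limma or in the methods' t-test, with 1 at an unadjusted p under 0.05 in limma, Tmprss2. These were the neutrophil enzymes Elane (change -0.02, adjusted p = 0.925) and Ctsg (0.21, adjusted p = 0.710), the mast cell enzyme Cma1 (0.15, adjusted p = 0.568), and the epithelial enzyme Tmprss2 (-0.36, adjusted p = 0.0882).

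Lcn2 was measured by 2 probes on chromosome 2 (mm9, minus strand), A_55_P2070869 at chr2:32240199-32240258 and A_51_P510156, whose 60 bases lie over 245 bases of the genome, at chr2:32241037-32241281. Their first 30 bases are given because 2 separate sequences of the same transcript, NM_008491, gave like changes.
Lcn2 probe A_55_P2070869: aaggagcatctggagcctcttcttatttgg
Lcn2 probe A_51_P510156: ggtatttttccgaaagacttctgaaaacaa

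The brighter probe gave levels of -0.51, 0.13 and -0.22 in MRL 1, 2 and 3, and of 2.45, 1.34 and 2.03 in LPR 1, 2 and 3. All 3 LPR kidneys were above the MRL kidneys, with LPR 1 the highest and LPR 2 the lowest of the LPR group. The change was 2.14 (standard error 0.30), or 4.42-fold (limma, adjusted p = 0.00476). The second probe changed by 2.33 (standard error 0.34), or 5.02-fold (limma, adjusted p = 0.0063), and the difference between the probes stayed between 2.16 and 2.48 in the 6 kidneys. In the methods' t-test the brighter probe just missed the threshold after adjustment (adjusted p = 0.0536).

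Other lipocalins are carriers of small lipophilic molecules. The array held 18 of them, and of the 11 tested genes 3 fell and 0 rose in LPR mice (limma, and 0 rose at an unadjusted p under 0.05). Orm1, an acute-phase protein of plasma, was 3.78-fold lower (limma, adjusted p = 0.036), its relative Orm3 was 1.77-fold lower (limma, adjusted p = 0.0093), and Lcn12 was 1.42-fold lower (limma, adjusted p = 0.028). Orm1 was above background in 2 of 3 and Orm3 in 1 of 3 LPR kidneys. Neither receptor that takes up Lcn2 was called higher in LPR mice. Slc22a17 changed by -0.19 (limma, adjusted p = 0.297), and Lrp2, the megalin of the proximal tubule, was the marker with the small fall given above, in 1 of its 5 tested probes.

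S100a8 and S100a9 lie next to each other on chromosome 3, where S100a8 had the probe A_51_P256827 (chr3:90473778-90473837 of mm9, plus strand) and S100a9 the probe A_55_P1998471 (chr3:90496573-90496632, minus strand). Their sequences are shown because the signals of both moved together in every kidney, and no run of 20 bases is shared by their probes.
S100a8 probe: cttgttcagagaattggacatcaatagtga
S100a9 probe: gtctaaagggaatggcttactcaatggcct

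The level of S100a8 was -2.68, -2.08 and -1.93 in MRL 1, 2 and 3, and -0.23, 1.09 and -0.10 in LPR 1, 2 and 3. The level of S100a9 was -0.51, -0.08 and 0.15 in the MRL kidneys, and 1.66, 3.01 and 1.73 in the LPR kidneys. In both genes the groups did not overlap and LPR 2 stood above the other LPR kidneys. S100a8 was 5.59-fold higher (change 2.48, standard error 0.38, limma, adjusted p = 0.00719) and S100a9 was 4.86-fold higher (change 2.28, standard error 0.38, limma, adjusted p = 0.0105). Within each array S100a8 minus S100a9 was between -2.17 and -1.84, a range of 0.33 over the 6 kidneys, compared with a range over the LPR kidneys alone of 1.31 for S100a8 and 1.36 for S100a9. Both calls were lost with the line of the array on the slide as a block (adjusted p = 0.101 for S100a8 and 0.128 for S100a9), a fit in which the changes were 2.00 and 1.80. That fit compares LPR 1 alone with the MRL kidneys of the same line, and takes the spread from the MRL kidneys and the pair LPR 2 and LPR 3, so that LPR 1 is assumed to vary like them. Both also missed the threshold in the methods' t-test (adjusted p = 0.066 and 0.0774).

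Among the other genes with S100 names, 16 were on the array, 13 were tested and 1 passed. This was S100a4, a protein of motile and mesenchymal cells, at 3.29-fold higher (limma, adjusted p = 0.000184), and the median change of the 13 was 0.06. For comparison, 6.54% of all tested probes were higher in LPR mice, so this count does not set the family apart. Tlr4 and Ager are receptors for calprotectin on leukocytes. Tlr4 changed by 0.11 (limma, adjusted p = 0.492), and Ager by -0.14 with its brightest probe (limma, adjusted p = 0.465), whereas 4 of the 7 tested probes of Ager were higher in LPR mice.

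Camp, Ltf and Ngp, which belong to the secondary granules of neutrophils, were dim in all kidneys. Camp, the precursor of the cathelicidin peptide, had the probe A_55_P2039699 (chr9:109749911-109749970 of mm9). Its levels were -3.74, -3.91 and -3.82 in MRL 1, 2 and 3, and -3.00, -1.80 and -3.06 in LPR 1, 2 and 3. Ltf, the iron-binding lactoferrin, had the probe A_52_P15388 (chr9:110942873-110942932) and levels of -4.33, -4.56 and -5.12 in MRL mice and of -3.32, -2.63 and -4.05 in LPR mice. Ngp, a cystatin-like granule protein, had the probe A_52_P429450 (chr9:110324266-110324814, over 549 bases) and levels of -5.37, -5.89 and -5.62 in MRL mice and of -4.59, -3.82 and -5.21 in LPR mice. In all 3 genes the LPR kidneys lay above the MRL kidneys and LPR 2 was the highest, and Ngp was above background in 2 of 3 MRL kidneys.

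None of these 3 granule genes passed the threshold in limma, with fitted changes of 1.20 for Camp (95% interval 0.43 to 1.98, adjusted p = 0.0581), 1.33 for Ltf (0.45 to 2.21, adjusted p = 0.0617) and 1.09 for Ngp (0.29 to 1.89, adjusted p = 0.0834). These correspond to 2.30-fold, 2.52-fold and 2.13-fold. The sizes depended on the background correction and its offset. With normexp correction and an offset of 50 the changes were 0.63 for Camp (adjusted p = 0.0582), 0.54 for Ltf (adjusted p = 0.0551) and 0.15 for Ngp (adjusted p = 0.397). In the fit without that correction each was close to the threshold and crossed it without 1 LPR mouse. Without LPR 2 the change of Camp was 0.79 (adjusted p = 0.0107). Without LPR 3 the changes were 1.69 for Ltf (adjusted p = 0.0277) and 1.42 for Ngp (adjusted p = 0.0334). Camp and Ltf also passed when probes above background on all 6 arrays were tested (adjusted p = 0.0394 and 0.0421).

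**Figure D2:**
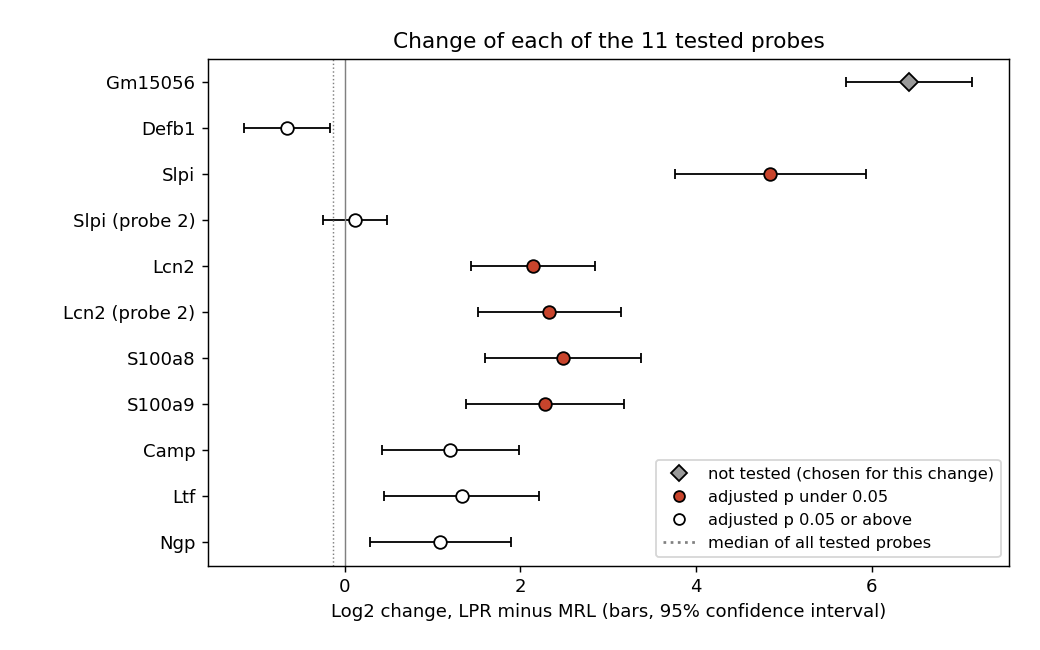
Fitted log2 change (LPR minus MRL) of the 11 tested probes with its 95% confidence interval (solid line at 0, dotted line at the median of all tested probes, -0.13). Slpi, Lcn2, S100a8 and S100a9 passed the threshold (filled circles), the intervals of Camp, Ltf, Ngp and Defb1 left out 0 without passing it (open circles), and Gm15056 (diamond) was not tested.

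Neutrophils were looked for with 18 markers that leave the 9 genes out. All were on the array and 14 were tested, of which 5 were higher, 0 lower and 9 did not pass, with a median change of 0.41 against -0.12 over all genes. The 5 were Chil3, a chitinase-like protein that macrophages make too, at 6.60-fold (limma, adjusted p = 0.000436), Padi4, the enzyme that citrullinates histones, at 3.39-fold (adjusted p = 0.00136), Stfa3, a stefin, at 2.94-fold (adjusted p = 0.00289), Mmp9, a gelatinase, at no less than 1.82-fold (adjusted p = 0.0471), and Mpo, myeloperoxidase, at 1.57-fold (adjusted p = 0.0459). Mmp9 was above background in 0 of 3 MRL kidneys. The defining surface marker Ly6g changed by 0.37 and did not pass (adjusted p = 0.10), nor did Elane, Ctsg, Csf3r, Cxcr2, Mmp8, Stfa2, Fcnb or Retnlg. Prtn3, Cd177 and Stfa1 were above background on 1 or 2 arrays and Stfa2l1 on none, and these 4 were not tested. The summed level of the 14 tested markers, as multiples of the 75th percentile of the array, was 40.7 to 55.1 in MRL and 43.0 to 48.4 in LPR mice. Nearly all of it came from Csf3r. The sum of all the other markers, tested or not, was 1.88 to 2.04 in MRL and 2.59 to 3.06 in LPR mice, highest in LPR 2. The brightest of these were Ly6g (mean log2 level 0.02 in MRL and 0.39 in LPR mice) and Elane (-0.85 and -0.87), which did not pass. Single markers differed in their order among the LPR kidneys. Retnlg, a neutrophil resistin-like gene that did not pass, was at -4.56, -2.01 and -3.70 in LPR 1, 2 and 3. Csf3r (5.41, 5.32 and 5.51), Cxcr2 (-4.78, -4.99 and -4.49) and Ctsg (-5.55, -6.40 and -5.12) were lowest in LPR 2. Chil3 was highest in LPR 1 (-1.39, -1.66 and -1.72). The part of neutrophils in the values of S100a8, S100a9, Camp, Ltf and Ngp was not tested.

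The LPR kidneys differed in which of the genes was highest. Relative to the mean of the MRL kidneys, S100a8 was 2.00, 3.32 and 2.13 higher in LPR 1, 2 and 3 on the log2 scale, and S100a9 was 1.80, 3.16 and 1.88 higher. Camp was 0.82, 2.03 and 0.76 higher, Ltf 1.34, 2.04 and 0.62, and Ngp 1.04, 1.81 and 0.42. These 5 genes shared LPR 2 as their highest kidney. Lcn2 was the other way round, 2.65, 1.54 and 2.24 higher, with LPR 2 the lowest. Slpi was 3.83, 5.17 and 5.53 higher, and Gm15056 6.54, 6.03 and 6.70 higher, both with LPR 3 the highest. Defb1 was 0.97, 0.22 and 0.76 below the MRL mean, nearest to it in LPR 2. With 1 array for each mouse, an order among the LPR kidneys had no replicate.

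**Figure D3:**
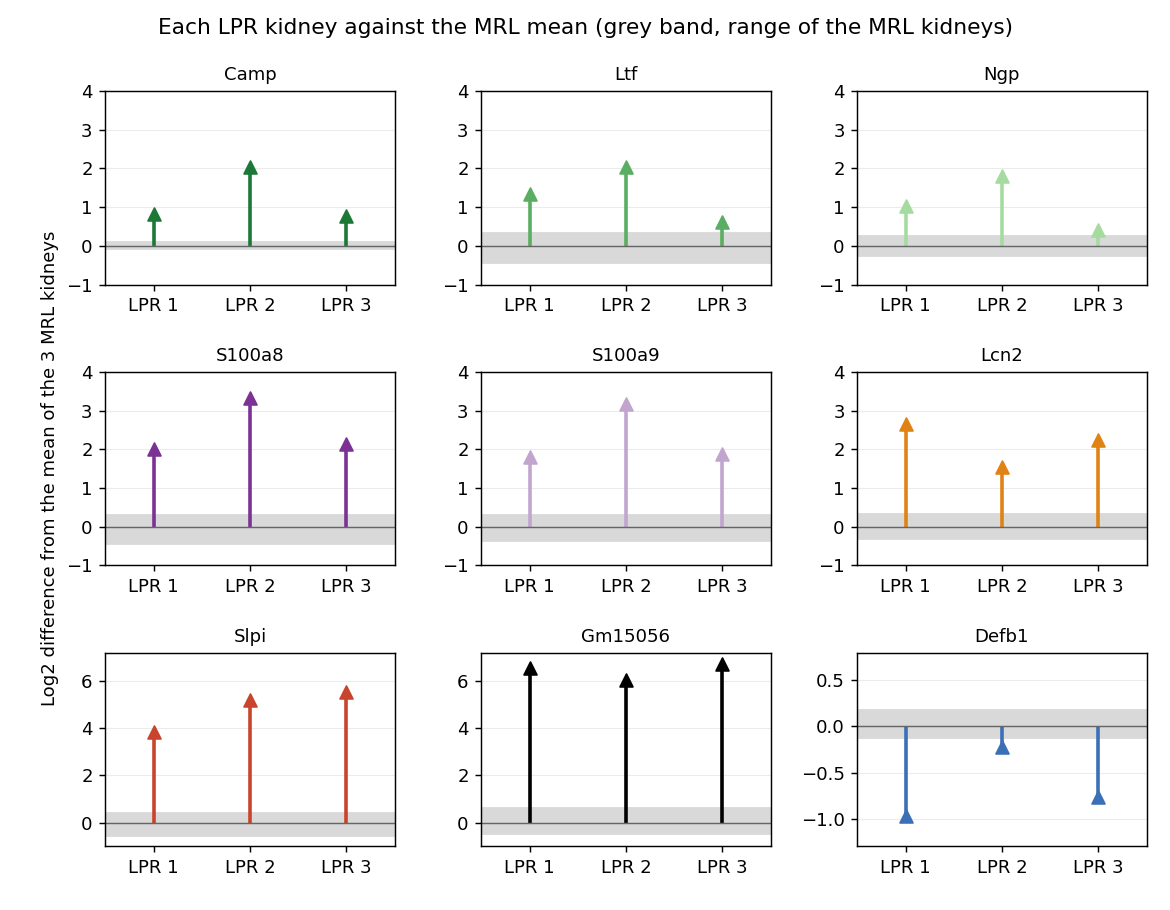
Level of each gene in LPR 1, LPR 2 and LPR 3 minus the mean of the 3 MRL kidneys, on the log2 scale (triangles; grey band, range of the MRL kidneys around their mean; the vertical axis runs from -1 to 4 for most genes, is longer for Slpi and Gm15056 and shorter for Defb1). Camp, Ltf, Ngp, S100a8 and S100a9 were highest in LPR 2, Lcn2 was lowest there, and Slpi and Gm15056 were highest in LPR 3.

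The likeness of the profiles was measured as the root-mean-square difference over the 6 kidneys after each gene was centred on its own mean, so that 0 is the same pattern and the size of change counts too. Among the 9 genes the closest pair was S100a8 and S100a9 (0.12), followed by Camp and Ngp (0.20), Ltf and Ngp (0.27), and Camp and Ltf (0.31). Gm15056 was 1.03 from Slpi and at least 2.10 from each of the other 7. Over 16563 genes with a RefSeq identifier, S100a9 was the nearest gene to S100a8 and S100a8 the nearest to S100a9, with Fut7, a fucosyltransferase of leukocytes, next after S100a9 (0.27 from S100a8). The genes nearest to Gm15056 were the chemokine Ccl8 (0.23), the interferon-induced chemokine Cxcl9 (0.38), Chil1 (0.45), Apol11b (0.57) and Il1rn, the interleukin-1 receptor antagonist (0.59). Their changes were 5.37 to 6.68 on the log2 scale. Gm15056 was chosen by its very large rise, so only genes with a rise of like size could lie near it. Those nearest to Slpi were Jchain, the joining chain of polymeric immunoglobulin (0.32), Pou2af1, a coactivator of B cells (0.33), Mzb1 (0.42), Tnfrsf17 (0.44) and Prg2 (0.45). Those nearest to Lcn2 were Clec5a, a receptor of myeloid cells (0.18), Dclk1 (0.21), S1pr5 (0.24), Smpdl3b (0.24) and the chemokine Ccl2 (0.25). The remaining genes nearest to S100a8 were Ccl19, Cd37 and Derl3 (0.33 to 0.37), and those nearest to S100a9 were Ccl19, Fut7, Hist1h4m and Tbx21 (0.29 to 0.36).

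Over all families of the 9 genes and other antimicrobial proteins, 157 relatives were on the array and 86 were tested. Of these 13 were higher, 3 lower and 70 did not pass, with a median change of 0.04. The 21 antimicrobial proteins outside those families had 14 tested genes, of which 7 were higher. The 5 largest were Chil1, a chitinase-like lectin, at 62.2-fold (limma, adjusted p = 4.2e-05), Prg2, the major basic protein of eosinophils, at no less than 10.4-fold with no MRL kidney above background (adjusted p = 4.87e-05), the lysozymes Lyz1 at 9.42-fold and Lyz2 at 8.89-fold (adjusted p = 0.000271 and 0.000223), and Pglyrp2, which cleaves peptidoglycan, at 5.89-fold (adjusted p = 0.000281). Lyz1 and Lyz2 are near-identical in sequence and may share signal. Among the cystatins and stefins, relatives of Camp and Ngp, 11 were tested and 2 were higher, Stfa3 and Cst7, an inhibitor of cathepsins in leukocytes, with a fitted rise of 49.0-fold (adjusted p = 0.000814). Cst7 was above background in 1 of 3 MRL kidneys, so the size of this rise rests on MRL signals near background. The transferrins other than Ltf, Trf and Meltf, changed by 0.50 and 0.61 without passing (adjusted p = 0.0571 and 0.263).

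**Figure D4:**
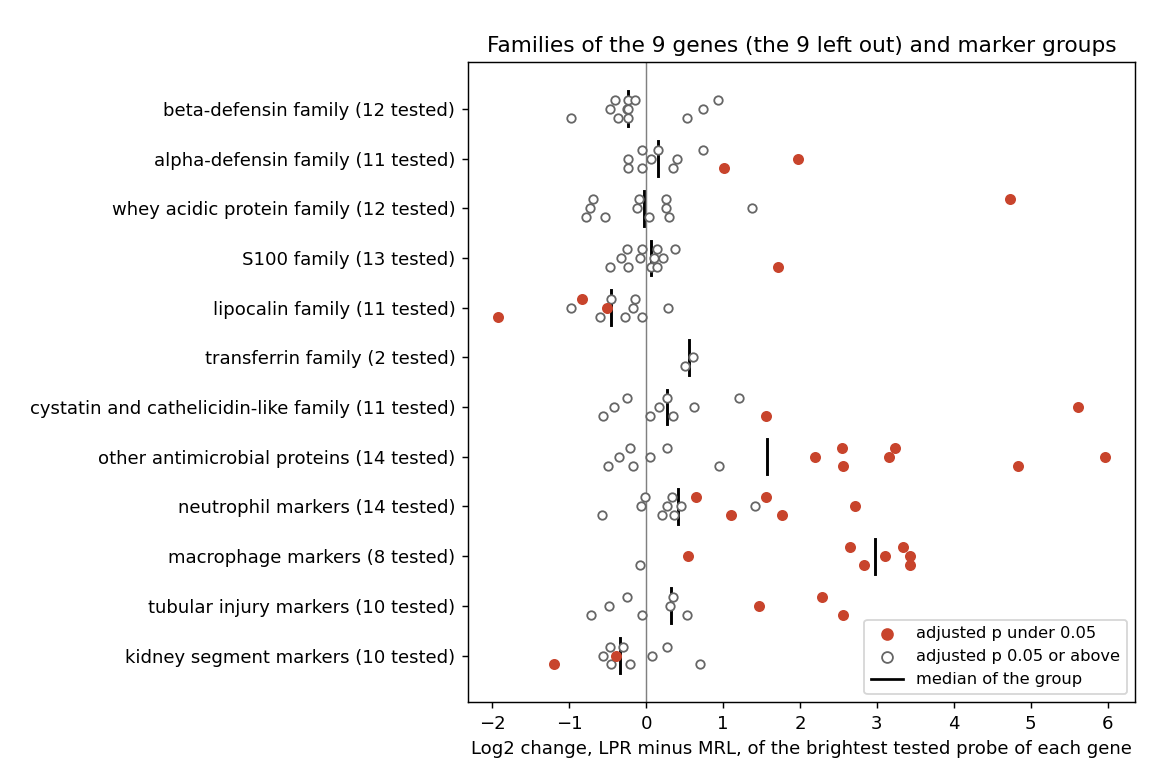
Fitted log2 change (LPR minus MRL) of every tested gene in the families of the 9 genes, which are left out themselves, and in 4 marker groups (filled, adjusted p under 0.05; open, adjusted p of 0.05 or above; vertical bar, median of the group). Genes with no MRL kidney above background, such as Defb9, Defa-rs4, Prg2 and Mmp9, are drawn at their fitted value. Tested beta-defensins lay between -0.98 and 0.94, and the macrophage markers had a median of 2.97.

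Markers of other cells moved too. Of 8 macrophage markers 7 were higher, among them C1qc at 10.8-fold (limma, adjusted p = 0.00012) and Adgre1 at 7.15-fold (adjusted p = 0.0274), with Itgam the exception (adjusted p = 0.789). The summed level of the 8 was 28.7 to 36.1 in MRL and 70.0 to 73.7 in LPR mice. In MRL mice most of this sum came from Csf1r and Itgam, at mean levels of 3.78 and 3.80 on the log2 scale. Csf1r rose 1.46-fold with its brightest probe, and the median change of the 8 was 2.97. Of 10 markers of tubular injury, 3 were higher, Timp1 at 5.90-fold (adjusted p = 0.000216), Vcam1 at 4.86-fold (adjusted p = 0.000592) and Vim at 2.77-fold (adjusted p = 0.000675), which other cells express as well. Havcr1, the kidney injury molecule that defines injured proximal tubules, changed by 0.35 and did not pass (limma, adjusted p = 0.340), and Krt20 did not pass either. The median change of the 10 injury markers was 0.33. At an unadjusted p under 0.05 in limma, 4 were higher and 2 were lower. The 2 lower were Sox9 (-0.71, adjusted p = 0.150) and Krt18 (-0.49, adjusted p = 0.0688). The part of macrophages or injured tubules in the values of Lcn2, Slpi and Gm15056 was not tested. Of the 8 tested erythroid markers, which follow the blood left in the kidney, 0 passed in limma or in the methods' t-test, with 5 higher at an unadjusted p under 0.05 in limma, and their summed level was 101 to 776 in MRL mice, and 590, 959 and 1181 in LPR 1, 2 and 3. The part of blood in the neutrophil granule genes was not tested.

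The receptors and regulators of the antimicrobial proteins were counted from lists. Of 10 receptors and binding partners 4 were higher and 1, Lrp2, was lower with its brightest probe. Those higher were Fpr2, a formyl peptide receptor that binds cathelicidin, at 11.4-fold (limma, adjusted p = 0.00225), Ccr6, a receptor for beta-defensins, at 5.68-fold (adjusted p = 0.000107), P2rx7 at 3.44-fold (adjusted p = 0.00207) and Lrp1, which binds lactoferrin, at 1.55-fold (adjusted p = 0.0268). Of 16 cytokines and transcription factors that act upstream of these genes, 13 were tested and 6 were higher. They included Gfi1, a repressor in neutrophil precursors and lymphocytes, at no less than 18.6-fold (adjusted p = 1.72e-05) and Ifng, interferon gamma, at no less than 16.5-fold (adjusted p = 0.000272), both with no MRL kidney above background. Il1b, interleukin-1 beta, was 4.78-fold higher (adjusted p = 0.0125) and Nfkbiz 1.81-fold higher (adjusted p = 0.0211). Il17a, Il17c and Csf3, cytokines that raise neutrophil and epithelial antimicrobial genes, were above background on 0 of 6 arrays. Cebpe, a factor that the secondary granule genes need, changed by 0.72 without passing (adjusted p = 0.0629), and Cebpb and Cebpd did not pass.

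RefSeq promoters were given for 8 of the 9 genes on GRCm38.p6, and the 250 bases before the start of each gene were searched on both strands for 5 motifs, which are descriptions of letters and not of bound sites. The motifs were the interferon gamma-activated site (TTCNNNGAA), the interferon-stimulated response element and the NF-kB site in their consensus forms, the C/EBP site (TTNNGNAA) and the TATA box (TATAAA). Of 32851 promoters of the same length they were found in 7.0%, 3.0%, 1.4%, 36.8% and 12.4%. In 0 of the 8 windows was there a match to the first 3 motifs. The C/EBP letters were found in the windows of Lcn2, S100a8, S100a9, Ltf, Ngp and Slpi, with 1, 1, 2, 2, 3 and 3 matches, and the TATA letters only in that of S100a8, from 30 to 25 bases before the start. In the windows of Gm15056 and Camp there was none of the 5. The windows of the 2 genes that moved together, S100a8 (chr3:90668821-90669070, plus strand) and S100a9 (chr3:90695722-90695971, minus strand), and of the 2 with the largest rises, Gm15056 (chr8:20902457-20902706, minus strand) and Slpi (chr2:164356508-164356757, minus strand), are shown 5′ to 3′ with the motif matches in capitals.
S100a8: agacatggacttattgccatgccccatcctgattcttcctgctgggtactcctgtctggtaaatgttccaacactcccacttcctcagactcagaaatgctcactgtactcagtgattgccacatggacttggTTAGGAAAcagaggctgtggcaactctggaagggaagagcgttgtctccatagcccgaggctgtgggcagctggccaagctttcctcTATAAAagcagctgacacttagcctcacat
S100a9: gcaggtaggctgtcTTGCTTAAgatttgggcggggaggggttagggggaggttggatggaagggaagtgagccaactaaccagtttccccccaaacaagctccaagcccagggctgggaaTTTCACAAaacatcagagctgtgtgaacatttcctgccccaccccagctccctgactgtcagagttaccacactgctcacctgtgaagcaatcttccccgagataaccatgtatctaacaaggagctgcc
Gm15056: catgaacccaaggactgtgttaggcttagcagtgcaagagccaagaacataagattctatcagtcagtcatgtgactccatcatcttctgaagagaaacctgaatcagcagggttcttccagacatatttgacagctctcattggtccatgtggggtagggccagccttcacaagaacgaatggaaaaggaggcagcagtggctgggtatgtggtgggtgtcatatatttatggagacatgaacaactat
Slpi: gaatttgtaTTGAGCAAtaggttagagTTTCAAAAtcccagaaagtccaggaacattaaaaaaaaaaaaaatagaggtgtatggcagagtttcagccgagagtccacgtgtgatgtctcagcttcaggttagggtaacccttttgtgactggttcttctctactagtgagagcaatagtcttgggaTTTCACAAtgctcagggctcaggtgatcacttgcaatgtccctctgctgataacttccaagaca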

How the data were processed

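Kidneys of 3 MRL and 3 LPR mice gave 1 array each. The authors deposited the intensity of each spot from Feature Extraction 12.0.3.1, background-subtracted and not normalized between arrays, with probes placed on mm9. The labels name the RNeasy Mini Kit for the RNA, the study's methods Trizol. Control and outlier spots were left out, intensities were taken to log2, each array's 75th percentile was subtracted, and the spots of a probe were averaged. Probes well above background on at least 3 of 6 arrays were tested with limma 3.58.1 in R 4.3.3, and the brightest tested probe stands for a gene. Where no MRL array was above background, only a lower bound of the rise is given, with each MRL signal raised to the lowest one well above background on its array.

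The members and lists were chosen with earlier results of these data known. Named were all probes of the 9 genes, Fas, genes of cell type lists, up to 5 genes of each other list by size among those that passed, and the 5 nearest profiles. Other genes were named for their role or place after their values were seen. Looked up by accession, RefSeq gave the same name for 11 of the 12 probes. The steps were tested on simulated data. The 20 alternatives were other background corrections, scalings, filters, blocks and tests, and leaving out each mouse. Nothing says whether mice shared a litter. With 3 mice per group the smallest p of an exact permutation test is 0.1, so none is given. A listed gene that is not reported here remains in the counts.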

Additional observations from a re-analysis of the deposited data

How the results depend on the processing

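No change of the 9 genes turned its direction under the 20 alternatives, or the 19 that could be run for Ngp, which was not above background on all 6 arrays. Slpi passed the threshold under all of them, Lcn2 under all but the methods' t-test, and S100a8 and S100a9 under all but that test and the block for the line on the slide. The rise of Gm15056 was 4.58 with normexp correction and its offset, and 6.19 to 6.73 otherwise on the log2 scale. Over all probes 5033 passed, against 7025 with normexp, 6313 with an intensity trend in limma, 3244 with no filter, 1925 with the block for the line on the slide, 3078 in the methods' t-test, and 2781 to 4648 when a mouse was left out, with fewest without MRL 1 (2965), MRL 2 (2781), MRL 3 (2893) or LPR 3 (2849). Of the 8 genes 4 were higher, against 6 with the trend, with a floor at the detection limit or with the filter on all 6 arrays, 2 with the block for the line, 1 in the methods' t-test, and 4 to 6 when a mouse was left out. Of the neutrophil markers 5 were higher, against 3 with no filter, 3 with the block for the line, 3 in the methods' t-test, and 3 to 4 when a mouse was left out, 3 being without MRL 1, MRL 3, LPR 2 or LPR 3. Relatives called higher were 11 to 16, and partners 7 to 10. The causes were not tested.

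The deviations of mice of the same number from their group means had correlations of 0.12, 0.02 and 0.01. Those of mice of different numbers ran from -0.07 to 0.05. With 3 mice per group these values cannot decide whether the numbers pair the mice. With the replicate block 3315 probes and 5 of the 8 genes passed, Ltf being the addition (adjusted p = 0.0325), and no other call of the 8 genes changed. Within the arrays with line number 1, the 3 MRL mice and LPR 1, the differences were 6.54 for Gm15056, 3.83 for Slpi, 2.65 for Lcn2, 2.00 for S100a8 and 1.80 for S100a9. Signals near background, as for Ngp and for Gm15056 in MRL mice, limit the size of a change.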
